A study of Homo sapiens with 12 samples.

Results

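The subunits of the oxidative phosphorylation machinery were followed in the RNA of MOLM-13, a human acute myeloid leukaemia line with an MLL-AF9 fusion, under decitabine (DAC), all-trans retinoic acid (ATRA) and their combination. Members were selected by symbol: protein genes of mitochondrial DNA (MT-ND, MT-CO, MT-CYB and MT-ATP) and nuclear genes whose names begin with NDUFA, NDUFB, NDUFC, NDUFS or NDUFV plus a number, with UQCR, with COX4 to COX8 or with ATP5, together with SDHA to SDHD. The measured value that the selection used was the level: a symbol was chosen by having at least 10 normalised counts in 3 or more of the 12 libraries. Of 46639 symbols, 105 carried such a name, 3 of these were antisense or divergent transcripts that were set aside, and 12 lay below the level. That left 90 members, 13 encoded in mitochondrial DNA and 77 in the nucleus, all of them protein-coding and all tested. MT-ATP6 and MT-ATP8, whose names end in P and a digit as those of many pseudogenes do, were kept because the annotation lists them as protein-coding.

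Every group held 3 libraries from MOLM-13 cultures grown with GM-CSF, which the series' design text describes as technical triplicates, so that p-values measure only the spread between these libraries. Cells were left untreated or received 100 nM DAC, an inhibitor of DNA methylation, 1 µM ATRA, a ligand of retinoic acid receptors, or both (DAC+ATRA). The labels give 96 h for untreated and 72 h for treated libraries, whereas the study's methods name only a harvest at 72 h. Which of them holds for the untreated libraries could not be settled here. If the labels hold, the difference in time cannot be told apart from treatment. A vehicle control was not analysed here. For ATRA the study's methods describe a later start than the 72 h of the labels.

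Depth lay between 4.67 and 11.9 M reads. Libraries with DAC held at most 7.16 M and libraries without it at least 8.36 M, so depth split the libraries in the same way as DAC, and its part in the results below was not tested. All 8 myeloid markers checked were expressed (summed level 20827 to 221377 normalised counts per library), whereas the sums of 3 markers each of T cells, B cells and epithelial cells stayed at 2.51 to 43.9, with CD8A, MS4A1 and KRT19 at 0 throughout. DAC replicate 3 stood apart in the mitochondrial genes and had the lowest share of reads from the non-coding RN7SL1 (4.84%, against 6.22% to 12.96% in the other libraries), and results that rest on it are given with and without it.

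Oxidative phosphorylation takes place in the inner mitochondrial membrane. Complexes I and II pass electrons from NADH and succinate to ubiquinone, complex III hands them on to cytochrome c, complex IV reduces oxygen, and complex V makes ATP from the proton gradient that complexes I, III and IV build up. Complex II is made from nuclear genes alone, whereas the other complexes join subunits of nuclear and mitochondrial origin, so that transcription in separate compartments has to supply matched parts. Acute myeloid leukaemia cells are known to rely strongly on this pathway.

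The first question was whether the nuclear and the mitochondrial genes moved together. Summed over the 77 nuclear members, the level was 81626, 81190 and 76285 normalised counts in untreated libraries, 98189, 90011 and 95311 with DAC, 81939, 78001 and 69661 with ATRA, and 99923, 89752 and 87645 with DAC+ATRA. All 6 libraries with DAC thus lay above all 6 without it. As a share of all reads the nuclear members took 1.20% to 1.29% with DAC and 0.93% to 1.12% without it, which leaves the same order. In bulk RNA, more cells of a type and more RNA per cell cannot be told apart.

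The 13 mitochondrial genes gave another order. Their sum was 82634, 78582 and 82984 normalised counts in untreated libraries, 91677, 79764 and 115432 with DAC, 105638, 100728 and 80748 with ATRA, and 85352, 96761 and 98291 with DAC+ATRA. Only the DAC+ATRA libraries were all above all untreated ones. The ratio of the mitochondrial to the nuclear sum was 0.97 to 1.09 in untreated libraries, 0.89 to 1.21 with DAC, 1.16 to 1.29 with ATRA and 0.85 to 1.12 with DAC+ATRA. With ATRA alone the ratio was above every untreated value (mean 1.25 ± 0.08 against 1.02 ± 0.06, SD, n = 3 each), while in the other treated groups its range overlapped with untreated. With DAC this range rested on replicate 3, which lay above every untreated library (1.21). DAC replicates 1 and 2 lay below every untreated library (0.93 and 0.89). The median change with DAC was 0.28 over the mitochondrial and 0.22 over the nuclear members. Without DAC replicate 3 these medians were 0.06 and 0.21. These ratios are a description and were not tested. MT-CO1, MT-CO2 and MT-CO3 held 92.7% of the mitochondrial reads, and the other 10 genes did not share the order: their sum was 6714, 5170 and 5896 in untreated and 6321, 6554 and 4498 in ATRA libraries, which overlapped. Counted by gene, 9 of the 13 mitochondrial genes had a change below 0 with ATRA, and the median change was -0.13 over the mitochondrial and -0.04 over the nuclear members. Without ATRA replicate 3 these medians were 0.006 and -0.001. The mitochondrial minus nuclear mean log2 level had an SD of 0.25 between libraries, pooled over groups. The higher ratio of sums with ATRA was thus not seen in the medians over genes, which gave no clear direction.

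**Figure D1:**
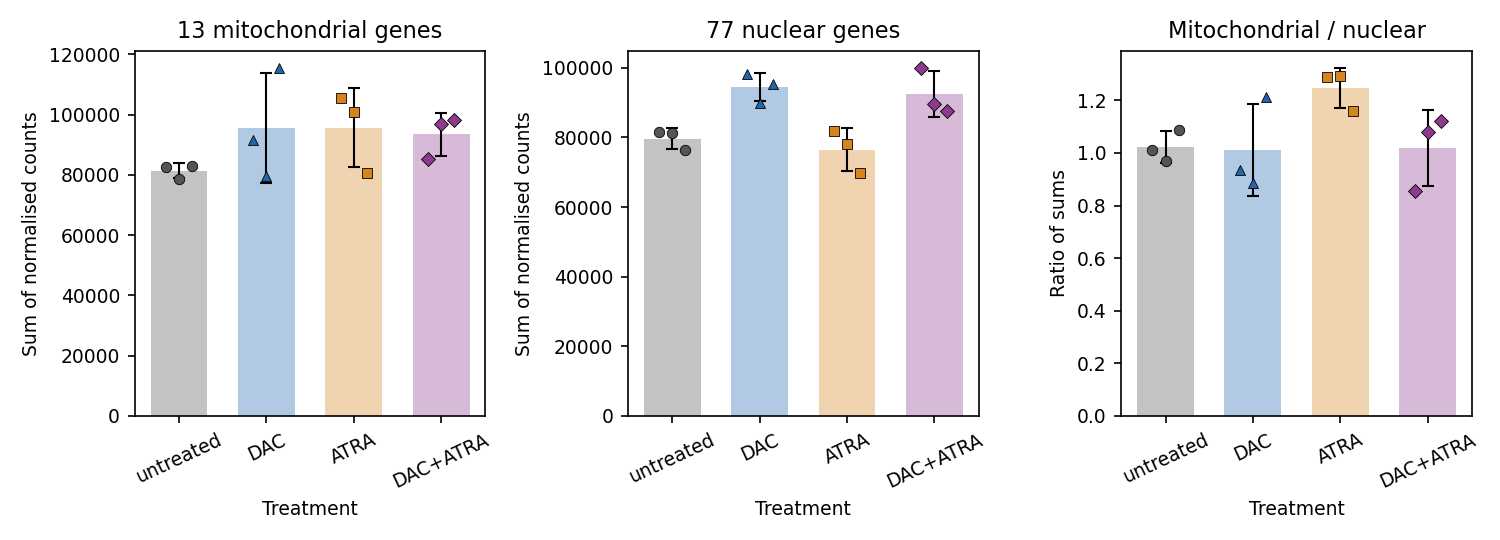
Summed normalised counts of the 13 mitochondrial (left) and 77 nuclear members (middle) and the ratio of both sums (right) in each group. Bars are means with SD over 3 libraries and points are libraries; all 6 libraries with DAC lie above the others in the middle panel, at 87645 or more, and the ATRA libraries lie highest on average on the right, at 1.16 to 1.29.

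Mitochondrial transcripts come from long precursors that run from the heavy-strand promoter over nearly the whole circle and are cut into single RNAs. MT-ND6 is the only protein gene on the other strand. Each of these genes has a single transcript row, and levels are given per length. Whether reads were counted to the same extent in each gene was not tested. Over 12 libraries, MT-CO3 was highest with 49162 normalised counts per kb, followed by MT-CO1 with 24670 and MT-CO2 with 11881, the 3 catalytic core subunits of complex IV. MT-ND3 of complex I reached 5644 per kb. The 9 others lay between 199 (MT-ATP8) and 900.0 per kb (MT-CYB). The level of MT-CO3 per kb was 72.1 times that of MT-ND4. Both genes are read from the same precursor, and how far the counting of reads entered this ratio was not tested.

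How reads were assigned bears on these levels. MT-ATP8 and MT-ATP6, both parts of the membrane sector of complex V, share 46 bases at chrM:8527-8572 (hg38, plus strand), of the 207 bases of MT-ATP8. The shared stretch is shown because a read within it fits either gene; the capitals mark the start codon of MT-ATP6 and the stop codon of MT-ATP8.
MT-ATP8 and MT-ATP6: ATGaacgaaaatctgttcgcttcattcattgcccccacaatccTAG
MT-ATP8 was the lowest of the 13, with 19 reads in its lowest library. MT-ND4L and MT-ND4 overlap in the same way by 7 bases. How far such reads were left out of the count was not tested.

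No mitochondrial gene except MT-CYB was called against untreated cells in any group at an adjusted p under 0.01 (limma over all 10641 protein-coding genes tested, Benjamini-Hochberg within each comparison). With DAC this made 7.69% of the 13 genes, near the 7.97% called over all genes. With ATRA and with DAC+ATRA it made 0%, against 26.1% and 28.9% over all genes. MT-CYB, the only complex III subunit of mitochondrial origin, stood at 969.8, 718 and 767 normalised counts in untreated and 948, 1468 and 1819 in DAC libraries. It rose with DAC (log2 change 0.75 ± 0.17, SE, adjusted p = 0.00559), although DAC replicate 1 lay below untreated replicate 1. The call was lost without untreated replicate 2 (adjusted p = 0.0403) or 3 (0.026) and without DAC replicate 2 (0.0282) or 3 (0.0117), and the change was 0.54 without DAC replicate 3. With DAC+ATRA it stood at 1226, 1092 and 1068 and was not called (0.47 ± 0.17, adjusted p = 0.0347), although it was when only the groups compared were fitted (0.00153) and without DAC replicate 1 (0.0045) or 3 (0.00607).

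Among the 10 mitochondrial genes other than MT-CO1 to MT-CO3, 8 had their highest value of all 12 libraries in DAC replicate 3. MT-ND5 shows the pattern, with 758, 604 and 578 without treatment, 672, 1065 and 1493 under DAC, 706, 599.8 and 473 under ATRA and 957, 980.4 and 949.6 under both drugs. Its change was 0.67 ± 0.20 (adjusted p = 0.0318) under DAC and 0.58 ± 0.20 (adjusted p = 0.0293) under both drugs. The first was 0.40 (adjusted p = 0.0979) without DAC replicate 3 and was called without DAC replicate 1 (0.97, 0.000853) and by DESeq2 (0.00521). The second was called when only the groups compared were fitted (0.000155) and without DAC replicate 1 (0.00472) or 3 (0.0032). MT-ATP6, which went from 572, 361 and 405 without treatment to 508, 687 and 914 with DAC, gave 0.64 ± 0.20 (adjusted p = 0.0352), 0.43 (0.0982) without DAC replicate 3 and a call without DAC replicate 1 (0.86, 0.00821). DAC libraries of both genes overlapped with the untreated ones, whereas the DAC+ATRA libraries of MT-ND5 lay above them. The median change of the 13 genes with DAC was 0.28 (log2), and 0.06 without DAC replicate 3.

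MT-CO1, the subunit in which oxygen is reduced, measured 30706, 30237 and 33617 without treatment, 38761, 32985 and 41413 under DAC, 43257, 44626 and 34898 under ATRA and 37544, 43492 and 44959 under both drugs. All ATRA and all DAC+ATRA libraries lay above all untreated ones, yet the changes missed the threshold (0.37 ± 0.13, adjusted p = 0.0262 with ATRA, 0.41 ± 0.13, adjusted p = 0.0132 with DAC+ATRA). DESeq2 on the recovered reads called both (adjusted p = 0.00397 and 0.00199), and so did edgeR with either scaling; limma called the first without ATRA replicate 3 (0.00718) and the second without DAC replicate 2 (0.00892), DAC replicate 3 (0.00454) or ATRA replicate 3 (0.00736). MT-CO3 gave 0.16 ± 0.15 (adjusted p = 0.458) and MT-CO2 0.10 ± 0.14 (adjusted p = 0.655) with ATRA. Complex I genes had values below 0 with ATRA, such as -0.42 ± 0.20 (adjusted p = 0.11) for MT-ND1, -0.48 ± 0.21 (adjusted p = 0.0756) for MT-ND2 and -0.64 ± 0.28 (adjusted p = 0.0859) for MT-ND6, but MT-ND3 had 0.46 ± 0.23 (adjusted p = 0.126). ATRA replicate 3 was the lowest ATRA library for all 13 genes.

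MT-ND4 (0.37 ± 0.21, adjusted p = 0.254 with DAC), MT-ND4L (0.17 ± 0.25, adjusted p = 0.705) and MT-ATP8 (-0.09 ± 0.38, adjusted p = 0.907) were also not called, and the untreated and DAC libraries of each overlapped. The coefficient of variation between replicate libraries had a median of 20.3% over the 13 genes without treatment, 31.1% under DAC, 17.6% under ATRA and 9.35% under both drugs, against 9.02%, 16.4%, 13.3% and 10.3% over the nuclear members.

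**Figure D2:**
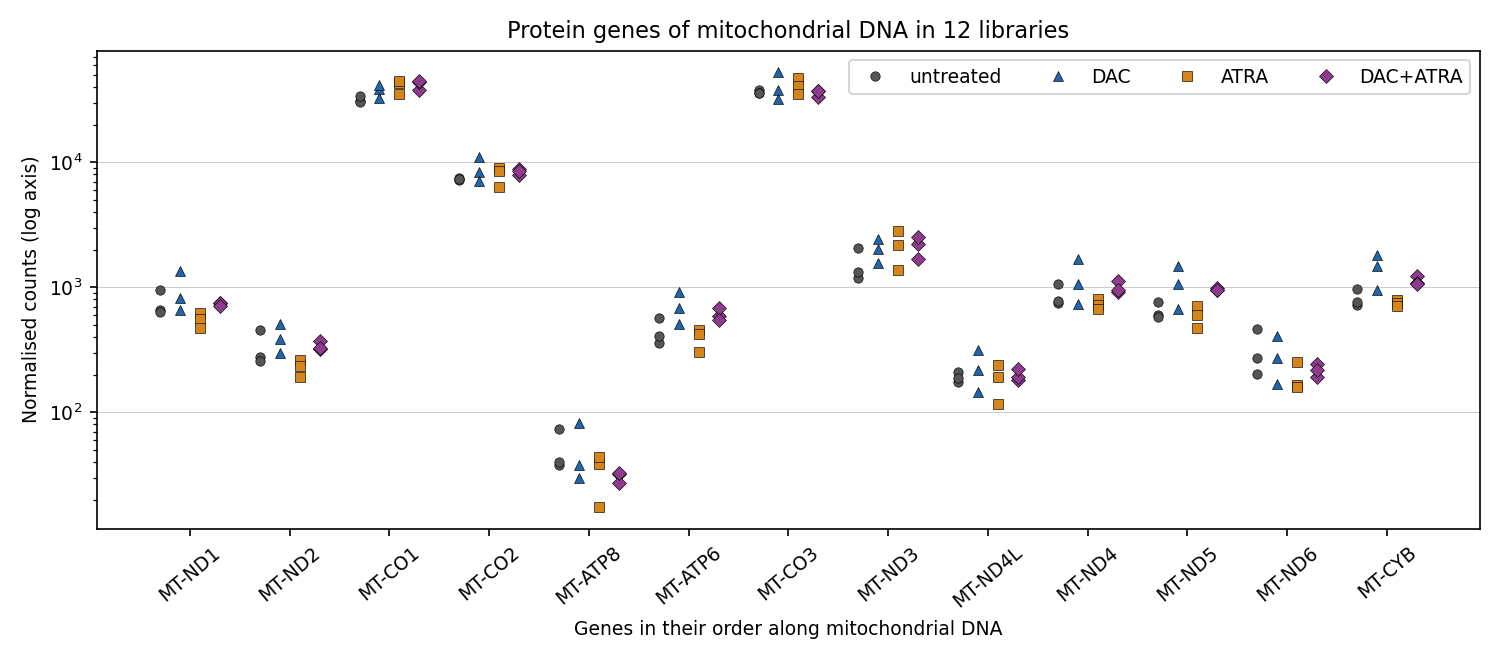
Normalised counts (log axis) of the 13 protein genes of mitochondrial DNA in each of the 12 libraries, in their order along the molecule. MT-CO1, MT-CO2 and MT-CO3 lie far above the others, MT-ATP8 is lowest, and the highest blue triangle is DAC replicate 3 in 12 of the 13 genes.

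Most calls fell on nuclear members, which make up 77 of the 90. With DAC, 6.49% of the nuclear and 7.69% of the mitochondrial members were called. DAC alone upregulated 6 of the 90 members (6.67%; 4.29% of all genes tested were called higher) and downregulated none (3.67% of all genes were called lower); 5 of the 6 were nuclear. Of the 90 members, 72 had a change above 0, with a median of 0.23 (log2) against 0.00 over all genes tested. Without DAC replicate 3 the count was 14, of which 12 were higher and 2 lower, without DAC replicate 1 or 2 it was 3, and without untreated replicate 2 or 3 it was 0. With only untreated and DAC libraries in the fit it was 0 as well, and with DESeq2 it was 12.

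The nuclear genes called with DAC belong to complexes I and IV. NDUFS8, a core subunit of complex I that carries iron-sulphur clusters, is encoded at chr11:68030617-68036644 (hg38, plus strand) and measured 473, 456 and 419.7 without treatment, 897, 768 and 541 under DAC, 856, 659 and 641 under ATRA and 1146, 1094 and 1055 under both drugs. Each group of treated libraries lay above the untreated ones, and the DAC+ATRA libraries lay above all others. The change was 0.68 ± 0.15 (adjusted p = 0.00485) under DAC, 0.66 ± 0.15 (adjusted p = 0.00196) under ATRA and 1.29 ± 0.15 (adjusted p = 1.8e-06) under both drugs. NDUFS8 was the only member called in all 5 pairwise comparisons. Its call with DAC+ATRA was kept whichever library was left out (12 of 12), that with ATRA in 10 of 12 (lost without untreated replicate 3, adjusted p = 0.0111, or ATRA replicate 1, 0.0146) and that with DAC in 7 of 12 (lost without each untreated library, at 0.0132, 0.0201 and 0.0256 for replicates 1 to 3, and without DAC replicate 1, 0.0317, or 2, 0.0251).

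NDUFB7, an accessory subunit of complex I at chr19:14566078-14572066 (minus strand), measured 1419, 1321 and 1184 without treatment, 2453, 1941 and 1633 under DAC, 1647, 1554 and 1650.3 under ATRA and 3074, 2799 and 2543 under both drugs. It rose with DAC (0.60 ± 0.13, adjusted p = 0.00304) and further under both drugs (1.10 ± 0.13, adjusted p = 1.29e-06), where all libraries lay above those of the other groups. NDUFS6, an accessory subunit that is added late in assembly, went from 470.5, 387 and 351 in untreated to 655, 533 and 939 with DAC (0.78 ± 0.18, adjusted p = 0.0049). With DAC+ATRA it stood at 658, 636 and 643 (0.69 ± 0.18, adjusted p = 0.00434) and with ATRA at 508, 381 and 344. The DAC calls of NDUFB7 and NDUFS6 were each kept in 8 of 12 left-out fits. Both were lost without untreated replicate 2 (adjusted p = 0.0142 and 0.0261), untreated replicate 3 (0.0211 and 0.0306) and DAC replicate 1 (0.0178 and 0.0122), NDUFB7 also without DAC replicate 2 (0.0101) and NDUFS6 without DAC replicate 3 (0.0104). The NDUFS6 call with DAC+ATRA was lost without untreated replicate 2 (0.0193) or 3 (0.0251) and without any DAC+ATRA library (0.0176, 0.0146 and 0.0159).

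In complex IV, all 11 nuclear members had a change above 0 with DAC (median 0.36) and with DAC+ATRA (median 0.45), and 2 (18.2%; 4.29% of all genes were called higher) and 5 of them (45.5%; 14.5% of all genes) were called. COX6A1, a nuclear subunit with a muscle counterpart, measured 1426, 1237 and 1412 without treatment, 2261, 1825 and 1829 under DAC, 1402, 1531 and 1177 under ATRA and 2299, 2064 and 2062 under both drugs. It rose with DAC (0.53 ± 0.12, adjusted p = 0.00419) and under both drugs (0.66 ± 0.12, adjusted p = 0.000186), whereas ATRA gave 0.01 ± 0.12 (adjusted p = 0.973). COX6B1, which sits over the cytochrome c binding site, had 2385, 2325 and 1776 in untreated and 3082, 2874 and 3132 in DAC libraries (0.50 ± 0.12, adjusted p = 0.00747). The DAC call of COX6A1 was lost without untreated replicate 1 (adjusted p = 0.0108), 2 (0.0359) or 3 (0.0111) and without DAC replicate 1 (0.0249); that of COX6B1 was lost without untreated replicate 2 (0.0145) or 3 (0.0562), DAC replicate 1 (0.0238) or 2 (0.0147), ATRA replicate 2 (0.0122) and without DAC+ATRA replicate 2 (0.0128) or 3 (0.0116).

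Separation of single libraries was also counted, as a description chosen after the values were seen. In 11 of the 77 nuclear members (14.3%) all 6 libraries with DAC lay above all 6 without it, against 3.54% of all genes tested. These were COX5B, COX6A1, COX6B1, COX7A2, COX7C and NDUFA4 of complex IV, the catalytic ATP5F1B and the stalk subunit ATP5PB of complex V, and NDUFA13, NDUFS1 and NDUFS6 of complex I. Complex IV gave 6 of its 11 nuclear members. None of the 13 mitochondrial genes was among them, but at 3.54% of all genes this number is too small for a contrast. COX5B, for example, had 4238, 3671 and 3724 in untreated and 3612, 3696 and 3111 in ATRA libraries, and 5622, 5068 and 4301 in DAC and 5371, 4398 and 4317 in DAC+ATRA libraries, although its change with DAC was not called (0.36 ± 0.12, adjusted p = 0.047). In the opposite direction, no member had all libraries with DAC below all others (2.49% of all genes). Scaled by total reads, 8 nuclear members and 4 of complex IV were separated.

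**Figure D3:**
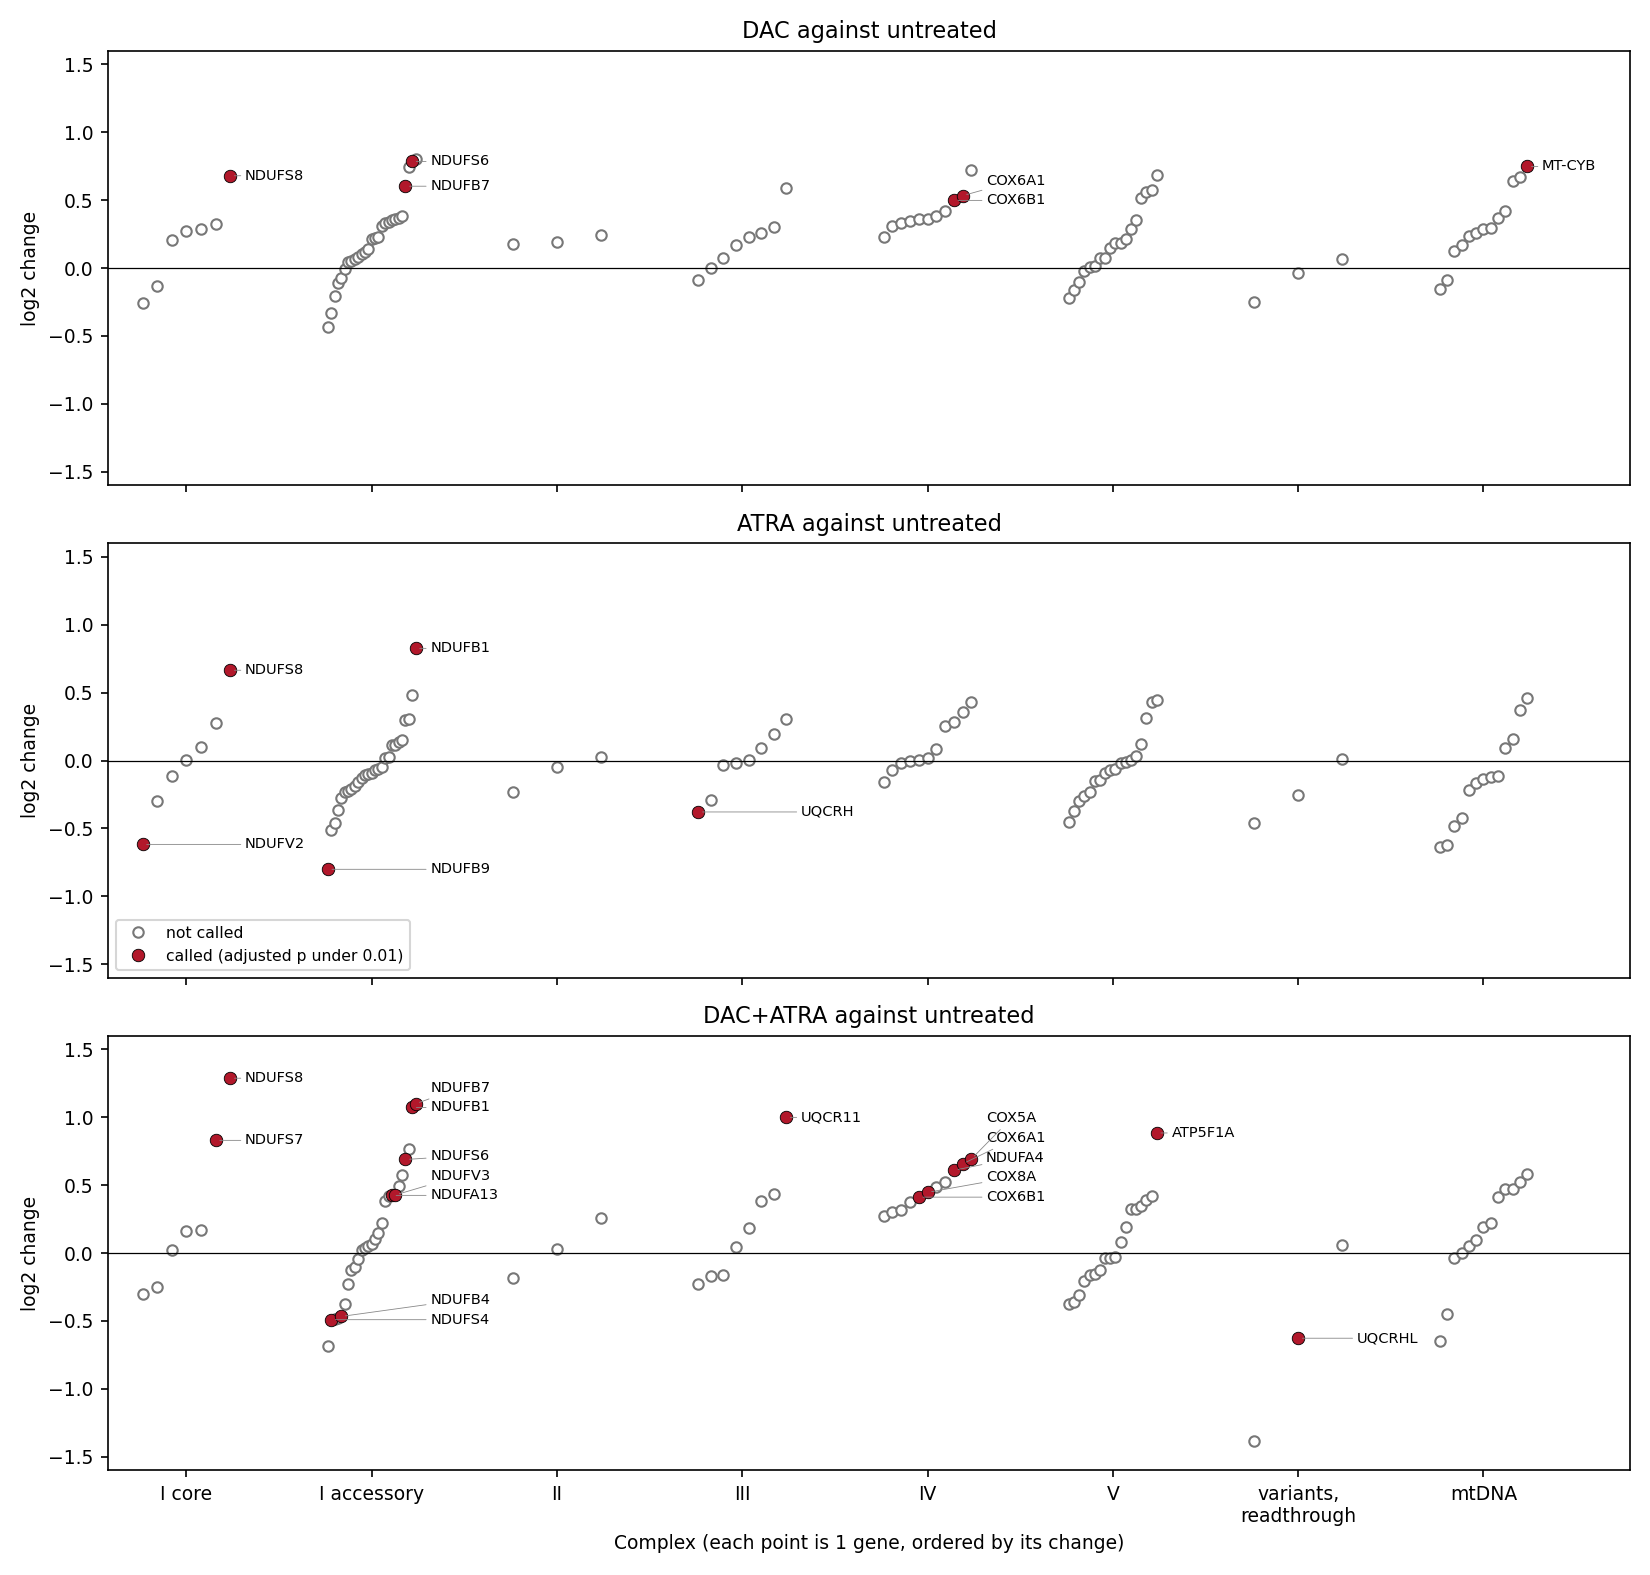
log2 change against untreated of each of the 90 members (points), by complex and by treatment, where filled points were called at an adjusted p under 0.01. With DAC and with DAC+ATRA all points of the 11 nuclear genes of complex IV lie above 0 (its mitochondrial genes are plotted under mtDNA); with ATRA the points of every complex lie on both sides of 0.

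ATRA alone changed few members. It upregulated 2 (2.22%; 12.1% of all genes were called higher) and downregulated 3 (3.33%; 14% of all genes were called lower), so both shares lay below those over all genes. The median change of the members was -0.05 against -0.04 over all genes, and 38 of the 90 were above 0. The count of 5 was 2 without untreated replicate 3, 3 without ATRA replicate 1 and 8 without DAC replicate 3; DESeq2 called 9.

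Besides NDUFS8, the small accessory subunit NDUFB1 rose with ATRA (0.83 ± 0.20, adjusted p = 0.00327), from 45.1, 41.4 and 32.6 to 60.03, 74.4 and 78.6. It stood at 67.4, 72.1 and 68.6 with DAC, which missed the threshold (0.80 ± 0.20, adjusted p = 0.0111), and at 93.8, 81.0 and 77.6 with DAC+ATRA (1.07 ± 0.20, adjusted p = 0.000314). All treated libraries of NDUFB1 lay above all untreated ones. The ATRA call was lost without untreated replicate 3 (adjusted p = 0.0226) or ATRA replicate 2 (0.0157) or 3 (0.0197), and with only its best transcript row both calls were lost (0.0267 with ATRA, 0.0232 with DAC+ATRA).

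Genes that fell with ATRA were NDUFB9, NDUFV2 and UQCRH. NDUFB9, an accessory subunit of the membrane arm, measured 635, 652 and 449 without treatment, 688, 726 and 831 under DAC, 401, 304 and 287 under ATRA and 403, 453 and 372 under both drugs. NDUFV2, a core subunit of the module that accepts electrons from NADH, had 454, 403 and 379, 541, 447 and 522, 275, 279.8 and 248 and 374, 290.4 and 340.0 in the same order of groups. Both genes fell with ATRA (-0.80 ± 0.16, adjusted p = 0.000418 and -0.62 ± 0.13, adjusted p = 0.000953), and both calls were kept in 12 of 12 left-out fits. With only its best transcript row, NDUFV2 missed the threshold (-0.52, adjusted p = 0.0116). NDUFV2 was the only member whose libraries with ATRA all lay below all libraries without it (9.47% of all genes tested), and no member had them all above (9.13% of all genes). UQCRH, the hinge protein of complex III, went from 3932, 4034 and 4144 to 3168, 3366 and 2805 (-0.38 ± 0.10, adjusted p = 0.00762). Its call was lost without any of the untreated libraries (adjusted p = 0.0185, 0.0283 and 0.0291), without ATRA replicate 1 (0.014) or 3 (0.0468) and without DAC+ATRA replicate 2 (0.0115) or 3 (0.0107).

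The combination gave the most calls. DAC+ATRA upregulated 14 members (15.6%; 14.5% of all genes were called higher) and downregulated 3 (3.33%; 14.4% of all genes were called lower), all of them nuclear. The share called higher was thus close to that over all genes, whereas the share called lower was below it. Of the 90 members, 59 were above 0, with a median of 0.16 against 0.00 over all genes. The count of 17 fell to 8 without untreated replicate 1, 2 or 3 and without DAC+ATRA replicate 1 or 3, to 9 without DAC+ATRA replicate 2, and reached 27 without DAC replicate 3.

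Complex I gave NDUFS8, NDUFB7, NDUFB1, NDUFS6, the core subunit NDUFS7 (0.83 ± 0.23, adjusted p = 0.00684), NDUFA13 (0.42 ± 0.10, adjusted p = 0.00307), also known as GRIM-19, and NDUFV3 (0.43 ± 0.12, adjusted p = 0.00636). Complex IV gave COX6A1, COX6B1, COX5A (0.69 ± 0.19, adjusted p = 0.00606), COX8A (0.45 ± 0.12, adjusted p = 0.00452) and NDUFA4 (0.61 ± 0.11, adjusted p = 0.000237). NDUFA4 was first assigned to complex I and is now counted as a subunit of complex IV. With only the best transcript row of each gene, the calls of NDUFS7 (adjusted p = 0.0468) and COX5A (0.0737) were lost. With a library left out, adjusted p rose past the threshold for NDUFS7 without untreated replicate 1 (0.0202), 2 (0.0258) or 3 (0.0174) and without DAC+ATRA replicate 1 (0.0104), 2 (0.0305) or 3 (0.0297), for NDUFA13 without untreated replicate 1 (0.0115) or 3 (0.0196) and without DAC+ATRA replicate 2 (0.0301) and for NDUFV3 without untreated replicate 1 (0.0133), 2 (0.0287) or 3 (0.0242) and without DAC+ATRA replicate 1 (0.0189), 2 (0.0207) or 3 (0.0271). In complex IV this held for COX5A without untreated replicate 1 (0.0141), 2 (0.0233) or 3 (0.0206) and without DAC+ATRA replicate 1 (0.0437) or 2 (0.0228), for COX8A without untreated replicate 1 (0.0128), 2 (0.013) or 3 (0.0217) and without DAC+ATRA replicate 1 (0.0263), 2 (0.014) or 3 (0.0113) and for COX6B1 without untreated replicate 2 (0.0133) or 3 (0.0769), DAC replicate 1 (0.0102) or 2 (0.0113), ATRA replicate 2 (0.014) and without DAC+ATRA replicate 1 (0.0595), 2 (0.0223) or 3 (0.0144). UQCR11, a small accessory subunit of complex III, rose from 605, 617 and 540.1 in untreated to 1183, 1173 and 1164 with DAC+ATRA (1.00 ± 0.15, adjusted p = 2.59e-05), with 1155, 917 and 649 in DAC and 745, 695 and 739 in ATRA libraries. Its DAC and ATRA libraries also lay above the untreated ones without a call (0.59 ± 0.15, adjusted p = 0.0108 and 0.31 ± 0.15, adjusted p = 0.118); the change with DAC was called without DAC replicate 3 (0.81, adjusted p = 2.02e-05) and by DESeq2 and edgeR.

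ATP5F1A, the alpha subunit of the catalytic head of complex V, rose from 264, 299.6 and 381 to 721, 477 and 553 (0.88 ± 0.23, adjusted p = 0.00523) and was the only called member of that complex. The call was lost without untreated replicate 1 (0.0311) or 2 (0.0213) and without DAC+ATRA replicate 1 (0.0395) or 3 (0.0154). With DAC it gave 676, 605 and 305, where replicate 3 lay among the untreated libraries, and was not called (0.68 ± 0.23, adjusted p = 0.0562), but was without DAC replicate 3 (1.04, adjusted p = 0.000183). Over all comparisons, 39 pairs of a member and a comparison were called, from 22 members, and 11 of the 39 were kept whichever library was left out. Those 11 were NDUFS8, NDUFB7, NDUFB1, COX6A1, UQCR11 and NDUFA4 with DAC+ATRA against untreated, NDUFB9 and NDUFV2 with ATRA, NDUFB9 in DAC+ATRA against DAC, and NDUFB7 and COX6A1 in DAC+ATRA against ATRA.

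The genes that fell with DAC+ATRA were NDUFS4, NDUFB4 and UQCRHL. NDUFS4, an accessory subunit near the NADH module whose loss is a known cause of Leigh syndrome, measured 1313, 1197 and 1292 in untreated and 1026, 866 and 823 in DAC+ATRA libraries (-0.49 ± 0.12, adjusted p = 0.00254), and its DAC and ATRA libraries (890.5, 1016 and 1133 and 1084, 1185 and 986) also lay below all untreated ones and overlapped with the combination. Its call was lost without untreated replicate 1 (adjusted p = 0.0137) or 3 (0.011) and without DAC+ATRA replicate 2 (0.0153) or 3 (0.021). NDUFB4 went from 606, 691 and 713 to 509.5, 419 and 529 (-0.47 ± 0.13, adjusted p = 0.00933) and kept its call in 3 of 12 left-out fits. UQCRHL, a near copy of UQCRH whose reads cannot be separated from it with certainty, went from 2136, 2047 and 2073 to 1552, 1179.7 and 1343 (-0.63 ± 0.18, adjusted p = 0.00963) and kept it in 4 of 12. NDUFB4 lost its call without untreated replicate 1 (0.0108), 2 (0.0401) or 3 (0.0416), ATRA replicate 1 (0.0105), 2 (0.0134) or 3 (0.011) and without DAC+ATRA replicate 1 (0.0173), 2 (0.0677) or 3 (0.0128). UQCRHL lost it without untreated replicate 1 (0.032), 2 (0.027) or 3 (0.0242), DAC replicate 1 (0.0109), ATRA replicate 2 (0.0145) and without DAC+ATRA replicate 1 (0.0109), 2 (0.0563) or 3 (0.031).

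**Figure D4:**
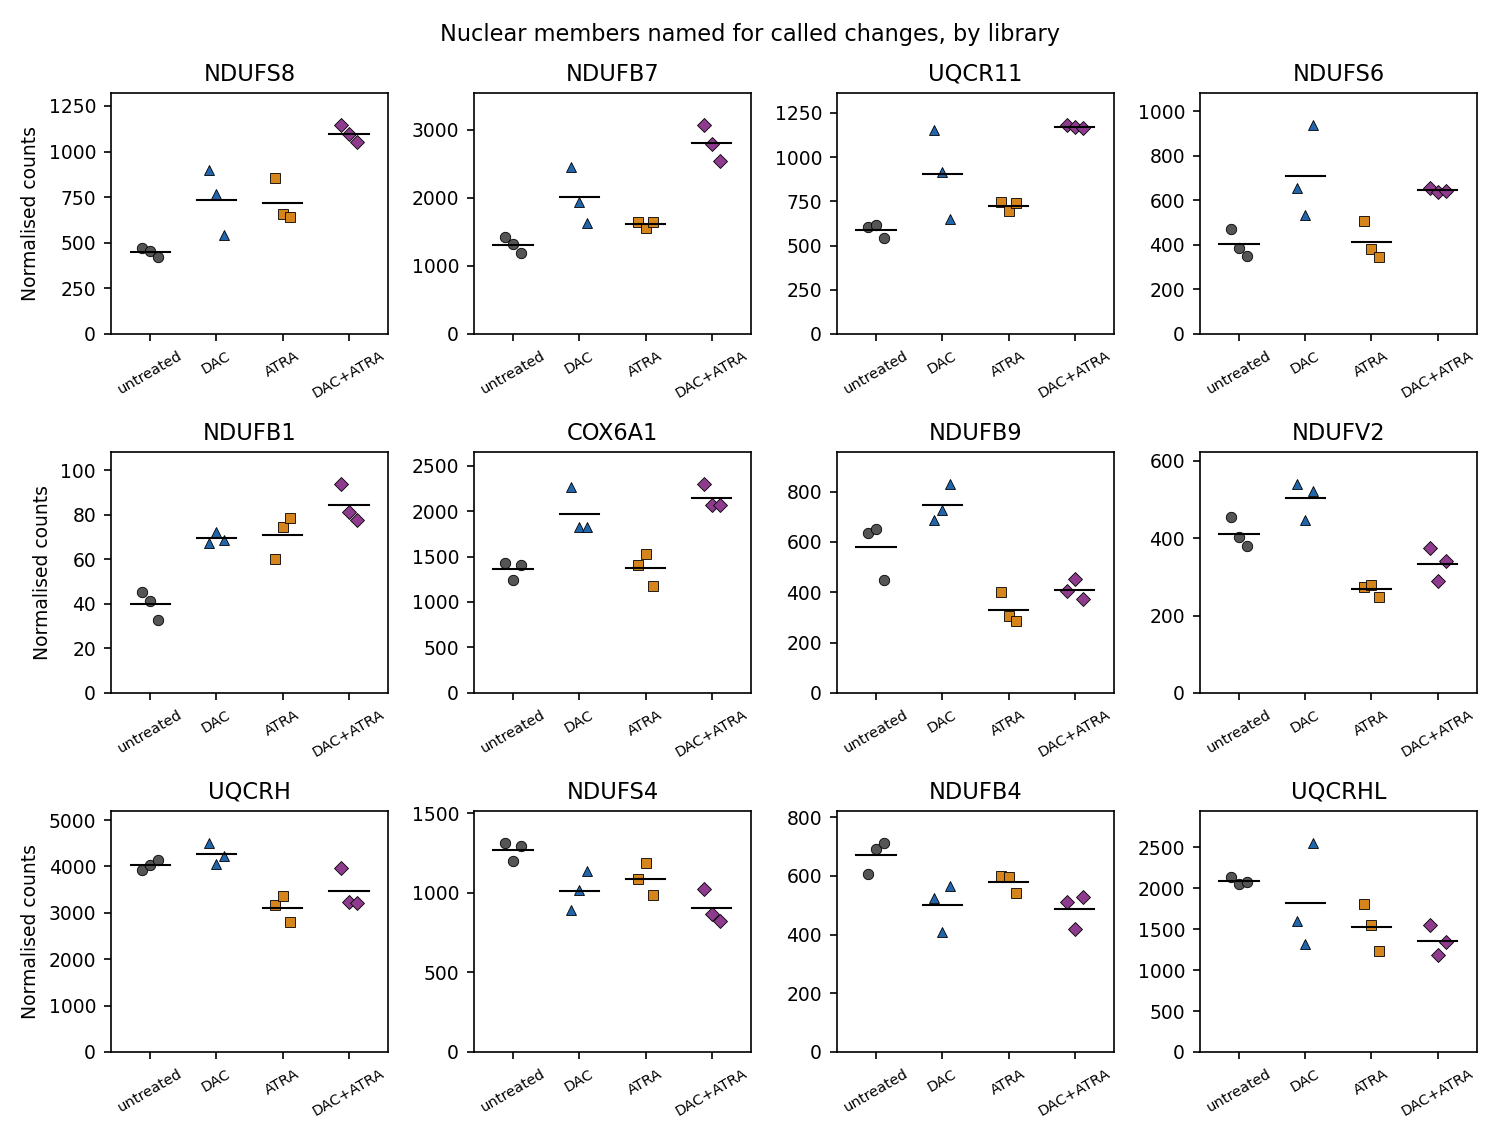
Normalised counts per library (points) and group means (lines) of 12 nuclear members named for called changes. DAC+ATRA libraries lie above all others in NDUFS8, NDUFB7 and UQCR11, and ATRA libraries lie below the untreated ones in NDUFB9, NDUFV2 and UQCRH.

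The combination was also compared with each drug directly, with the spread estimated over all 12 libraries. Against DAC alone, DAC+ATRA had 2 members higher (2.22%; 9.04% of all genes) and 2 lower (2.22%; 9.74% of all genes). NDUFS8 (0.61 ± 0.15, adjusted p = 0.00534) and NDUFB7 (0.50 ± 0.13, adjusted p = 0.00604) were higher, and NDUFB9 (-0.87 ± 0.16, adjusted p = 0.000276) and NDUFV2 (-0.59 ± 0.13, adjusted p = 0.002) lower. The 2 higher calls were each kept in 7 of 12 left-out fits, with adjusted p up to 0.0257 and 0.0385, both lost without DAC replicate 2 or 3 and DAC+ATRA replicate 1 or 2, NDUFS8 also without DAC+ATRA replicate 3 (0.0158) and NDUFB7 without untreated replicate 2 (0.0102). The NDUFV2 call was lost only without DAC+ATRA replicate 2 (0.0196). The count of 4 was 2 without DAC replicate 2, DAC replicate 3 or DAC+ATRA replicate 1 and 1 without DAC+ATRA replicate 2.

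Against ATRA alone, DAC+ATRA had 7 members higher (7.78%; 6.47% of all genes) and none lower (5.46% of all genes). These were NDUFB7 (0.79 ± 0.13, adjusted p = 0.000181), UQCR11 (0.69 ± 0.15, adjusted p = 0.00236), COX6A1 (0.65 ± 0.12, adjusted p = 0.00055), NDUFS8 (0.62 ± 0.15, adjusted p = 0.00661), NDUFA13 (0.47 ± 0.10, adjusted p = 0.0029), NDUFS1 (0.47 ± 0.11, adjusted p = 0.00366), the largest core subunit of complex I, and COX8A (0.46 ± 0.12, adjusted p = 0.00734). Calls of NDUFB7 and COX6A1 were kept in 12 of 12 left-out fits. Adjusted p rose past the threshold for UQCR11 without ATRA replicate 2 (0.0153) and without DAC+ATRA replicate 1 (0.012), 2 (0.0121) or 3 (0.0111), for NDUFS8 without untreated replicate 2 (0.0109), ATRA replicate 2 (0.0396) or 3 (0.0409) and without DAC+ATRA replicate 1 (0.0328), 2 (0.0256) or 3 (0.0197), for NDUFA13 without ATRA replicate 2 (0.0209) or 3 (0.014) and without DAC+ATRA replicate 2 (0.0297), for NDUFS1 without ATRA replicate 2 (0.0147) or 3 (0.0237) and without DAC+ATRA replicate 1 (0.0183) or 3 (0.0258) and for COX8A without untreated replicate 1 (0.0105) or 2 (0.0126), ATRA replicate 2 (0.0245) or 3 (0.0434) and without DAC+ATRA replicate 1 (0.0422), 2 (0.0238) or 3 (0.0194). The median over the 90 members was 0.20 against 0.03 over all genes, and 67 were above 0. The count was 2 without ATRA replicate 2, 3 without ATRA replicate 3 or any DAC+ATRA library, 13 without DAC replicate 1 and 16 without DAC replicate 3. The interaction, which asks whether the combination departs from the sum of the single changes on the log2 scale, was called in no member in either direction (0.724% of all genes were called higher and 0.874% lower); no member had an unadjusted p under 0.05 by limma, and DESeq2 and edgeR called none.

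Promoters of 3 members that were called higher with DAC+ATRA against untreated and against ATRA, from complexes I, IV and III, are shown because nuclear respiratory factor 1 (NRF1) and the ETS factor GABPA (also called NRF2) are the textbook activators of nuclear respiratory genes. Each window holds the 250 bases before the RefSeq start (GRCh38.p14), and capitals mark a match, on either strand, to GCGC, A, any base and GCGC in a row for NRF1 or to CCGGAAG for GABPA and other ETS factors. The windows lie at chr19:14572067-14572316 (minus strand), chr12:120437863-120438112 (plus strand) and chr19:1605463-1605712 (minus strand).
NDUFB7: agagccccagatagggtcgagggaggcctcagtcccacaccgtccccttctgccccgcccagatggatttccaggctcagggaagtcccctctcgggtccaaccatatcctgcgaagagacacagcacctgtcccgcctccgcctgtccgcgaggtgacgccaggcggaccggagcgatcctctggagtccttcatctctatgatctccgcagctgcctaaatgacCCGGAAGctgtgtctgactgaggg
COX6A1: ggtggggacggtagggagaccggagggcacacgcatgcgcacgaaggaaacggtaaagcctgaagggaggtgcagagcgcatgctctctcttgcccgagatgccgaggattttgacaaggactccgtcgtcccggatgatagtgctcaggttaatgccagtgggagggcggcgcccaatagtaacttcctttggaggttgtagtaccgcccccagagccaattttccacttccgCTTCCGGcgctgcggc
UQCR11: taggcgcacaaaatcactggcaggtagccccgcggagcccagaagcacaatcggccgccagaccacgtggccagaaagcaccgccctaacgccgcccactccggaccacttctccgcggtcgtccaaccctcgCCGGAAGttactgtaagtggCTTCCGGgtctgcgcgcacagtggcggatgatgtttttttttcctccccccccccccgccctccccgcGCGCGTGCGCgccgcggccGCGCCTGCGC
NDUFB7 and COX6A1 held an ETS match each and UQCR11 held 2 ETS and 2 NRF1 matches, with no match of one motif overlapping another. Of the other members that met the condition, NDUFA13 and COX8A held an ETS match each and NDUFS8 held no match. The window of NDUFS8, which is not printed, reaches into the annotated gene. Those of COX6A1 and UQCR11 do so too, by 23 and 11 bases, whereas that of NDUFB7 does not. The ETS match of COX6A1 and the last NRF1 match of UQCR11 lie inside the annotated genes.

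Of the 77 nuclear members, 63 had a window in the RefSeq table. The NRF1 letters were found in 12 of the 63 (19.0%), in 11.1% of 8541 tested genes with a window and in 5.07% of all 35116 promoters. The ETS letters were found in 17 of the 63 (27.0%), in 17.5% of the tested genes and in 8.52% of all promoters. Among the 17 members with a window that were called against untreated with DAC, ATRA or DAC+ATRA, 7 held the ETS letters and 2 the NRF1 letters. Of the 46 others, 10 held the ETS letters and 10 the NRF1 letters. A match is a description of the letters and not a bound site. The factors themselves were not called: GABPA gave 0.17 ± 0.17 (adjusted p = 0.462) and NRF1, near the level limit with 7.0, 7.31 and 5.02 in untreated and 12.6, 15.8 and 13.3 in DAC+ATRA libraries, 1.01 ± 0.42 (adjusted p = 0.0662).

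Complex II, the only complex without a mitochondrial gene, had no called member in any comparison. Only 3 of its genes were tested. Against untreated, 7.97%, 26.1% and 28.9% of all genes were called with DAC, ATRA and DAC+ATRA. With so few genes tested, the lack of calls is not a result about the complex. SDHB, its iron-sulphur subunit, measured 1898, 1675 and 1526 in untreated and 2238, 1962 and 1887 in DAC+ATRA libraries (0.26 ± 0.14, adjusted p = 0.148). The membrane anchors SDHC and SDHD gave 0.03 ± 0.19 (adjusted p = 0.928) and -0.18 ± 0.21 (adjusted p = 0.526). The flavoprotein SDHA missed the level.

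In complex V, the c-ring genes ATP5MC1, ATP5MC2 and ATP5MC3, which encode the same mature protein, were not called with DAC+ATRA (-0.12 ± 0.37, adjusted p = 0.82, -0.21 ± 0.20, adjusted p = 0.446 and -0.04 ± 0.14, adjusted p = 0.866). ATP5IF1, the inhibitor of ATP hydrolysis, was higher in all ATRA libraries (159, 155 and 217) and all DAC+ATRA libraries (181, 185 and 153) than in untreated ones (133, 126 and 127), without a call (0.44 ± 0.16, adjusted p = 0.0398 and 0.42 ± 0.16, adjusted p = 0.0475). The median change over the 18 members of complex V was 0.16 with DAC, -0.07 with ATRA and -0.03 with DAC+ATRA. COX7A2L, a factor for supercomplexes that the rule takes in by its name, stood at 17.9, 18.7 and 13.2 in untreated and 7.0, 11.3 and 2.04 in DAC+ATRA libraries (-1.38 ± 0.46, adjusted p = 0.0213); it was called without DAC+ATRA replicate 2 (-1.82, adjusted p = 0.00609).

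Genes that serve the pathway without being members were read from lists. Subunits and carriers outside the naming rule, CYC1, NDUFAB1 and CYCS, were not called against untreated. Of 47 assembly factors, DAC upregulated 1 (2.13%; 4.29% of all genes) and downregulated none (3.67% of all genes). ATRA upregulated 3 (6.38%; 12.1% of all genes) and downregulated 5 (10.6%; 14% of all genes), and DAC+ATRA upregulated 5 (10.6%; 14.5% of all genes) and downregulated 7 (14.9%; 14.4% of all genes), so these shares lay near or below those over all genes. SURF1, which helps build the MT-CO1 core, had the largest change, from 12.4, 26.8 and 21.3 in untreated to 102, 97.9 and 91.9 with DAC+ATRA (2.28 ± 0.40, adjusted p = 0.000132). NDUFAF2, which joins late in complex I assembly, fell with ATRA (-1.39 ± 0.27, adjusted p = 0.000367), as did SDHAF3 of complex II (-1.17 ± 0.28, adjusted p = 0.00292). The median change of the assembly factors was 0.05, -0.06 and 0.07 with DAC, ATRA and DAC+ATRA.

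Of 26 tested genes for upkeep, transcription and RNA handling of mitochondrial DNA, none was called with DAC (3 had an unadjusted p under 0.05), 2 fell with ATRA (7.69%; 14% of all genes), and 2 rose and 2 fell with DAC+ATRA (7.69% each; 14.5% and 14.4% of all genes). GRSF1, an RNA granule protein, fell with ATRA (-0.74 ± 0.17, adjusted p = 0.00164). MTERF4, a factor of the mitochondrial ribosome, rose with DAC+ATRA (0.72 ± 0.16, adjusted p = 0.00121), as did POLRMT, the mitochondrial RNA polymerase (0.68 ± 0.16, adjusted p = 0.00219). LRPPRC, which stabilises mitochondrial messenger RNAs, measured 6868, 6772 and 6633 without treatment, 5622, 5805 and 6692 under DAC, 4663, 4389.6 and 3765 under ATRA and 4749.6, 4246 and 4209 under both drugs; its libraries with ATRA all lay below those without, and it fell under ATRA (-0.67 ± 0.10, adjusted p = 4.31e-05) and under both drugs (-0.62 ± 0.10, adjusted p = 9.31e-05). It was named after its values were seen.

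Among the regulators, 7 of 9 were tested, since PPARGC1A and PPRC1 had at most 4.35 and 2.80 normalised counts in a library. PPARGC1B, a coactivator of respiratory genes, rose with DAC+ATRA (0.77 ± 0.14, adjusted p = 0.000144), from 265, 269.5 and 319 to 455, 522 and 479.9. Its partner ESRRA rose as well (1.33 ± 0.38, adjusted p = 0.00872), from 10.1, 21.1 and 32.6 to 60.2, 45.03 and 45.9. GABPB2, a partner of GABPA, fell with DAC (-0.55 ± 0.12, adjusted p = 0.00275) and under both drugs (-0.53 ± 0.12, adjusted p = 0.00113). In the tricarboxylic acid cycle, of 13 genes IDH3A rose with ATRA (0.77 ± 0.18, adjusted p = 0.00195) and under both drugs (0.83 ± 0.18, adjusted p = 0.000928). With DAC+ATRA, MDH2 rose (0.50 ± 0.14, adjusted p = 0.00789) and SUCLG2 fell (-0.57 ± 0.15, adjusted p = 0.004). None of the 13 was called with DAC, where 3 had an unadjusted p under 0.05. Over all genes tested, 4.29% were called higher and 3.67% lower with DAC, and 12.1% and 14% with ATRA. With DAC+ATRA these shares were 14.5% and 14.4%. The calls among regulators and cycle genes are thus given gene by gene and not as a result about either list.

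Names that did not reach the level were COX4I2, COX6A2, COX6B2, COX7A1, COX7B2, COX8C and NDUFA4L2, variants known from muscle, testis, lung or hypoxia, together with ATP5MF-PTCD1, ATP5MGL, NDUFA3, NDUFA6 and SDHA. NDUFA3 with 20 transcript rows had 1 read and NDUFA6 with 14 rows had none, and SDHA with 4 rows had 97 reads over 12 libraries; since reads that fit several listed transcripts appear to have been left out of the count, these values are lower limits and not a statement that the gene is silent. The members just inside the limit were NDUFV1 (10 normalised counts or more in 4 libraries), COX7A2L (10 libraries) and NDUFC1 (11 libraries); just outside were SDHA (2 libraries) and ATP5MGL (1 library). NDUFV1, the flavin-binding core subunit of complex I, ranged from 4.35 to 19.6 normalised counts, too low for a change to be read. The readthrough NDUFC2-KCTD14 counts as a member by its name and gave 0.06 ± 0.35 (adjusted p = 0.906) with DAC+ATRA.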

How the data were processed

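RNA of 12 MOLM-13 libraries (4 groups of 3), depleted of ribosomal RNA and made with a stranded kit, was aligned by the authors with STAR to hg38 and counted per transcript with HTSeq. The deposited signal is the read count divided by a DESeq2 size factor (versions are not given in the sources used here). All values returned whole reads (tolerance 0.01), which gave 4.67 to 11.9 M reads per library. The 100502 transcript rows were summed to 46639 symbols, and 88.9% of rows matched GENCODE 44. Reads that fit several transcripts appear to be left out, so nuclear levels are lower limits.

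log2(normalised count + 1) was tested with limma 3.58.1 (R 4.3.3, mean-variance trend) over all 12 libraries in 6 comparisons, for the 10641 genes that code for proteins and reached 10 normalised counts in 3 libraries. Genes were called at a Benjamini-Hochberg adjusted p under 0.01, and fold changes of low genes are understated on this scale. The count tests that the plan foresaw for raw counts, DESeq2 1.42.0 and edgeR 4.0.16, were run on the recovered reads as alternatives. The main limma fit, DESeq2 and edgeR with TMM factors were tried on simulated counts with changes in DAC+ATRA only. The other settings were not tried on simulated counts. Members and lists were chosen with earlier results of these data known. Named were all mitochondrial and complex II genes, fixed variants, the c-ring genes and ATP5IF1, and up to 4 called genes per comparison and direction whose groups did not overlap, by size of change; other called members were named after their values were seen.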

Additional observations from a re-analysis of the deposited data

Results flagged for a closer look

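Signals outside the compared members stood above the untreated level in 2 cases. MT-RNR2, the large ribosomal RNA of mitochondria, had 13005.2 ± 4325 normalised counts with ATRA (SD, n = 3, 9478 to 17830) against 6563 ± 2140 in untreated libraries (4901 to 8978). It was 14638 with DAC+ATRA (7784 to 20585) and 9816 with DAC (8249 to 11400), so higher means were not particular to ATRA. MT-RNR1, the small ribosomal RNA, averaged 852 with ATRA, 992 with DAC+ATRA and 749.98 with DAC against 478 in untreated libraries. Ribosomal RNA was depleted before sequencing. SDHA, the flavoprotein of complex II that lay below the level for members, had 11.9576 ± 4.28 normalised counts with DAC+ATRA (9.19 to 16.9) against 6.45 ± 1.56 in untreated libraries (5.02 to 8.12). None of these differences was tested.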

How the results depend on the processing

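The numbers of members called (6 with DAC, 5 with ATRA and 17 with DAC+ATRA against untreated, 4 for DAC+ATRA against DAC and 7 against ATRA) depended on the processing, and the causes were not tested. With DAC the count was 12 by DESeq2, 10 by edgeR with TMM factors and 0 when the fit held only the groups compared. With ATRA it was 9 by DESeq2 and 3 with the best transcript row of each gene. With DAC+ATRA it was 28 with only the compared groups. Against DAC it was 2 with only the compared groups, and against ATRA 13 by DESeq2, 11 with total-count scaling and 12 with only the compared groups. At an adjusted p under 0.05 the counts were 17, 13, 31, 7 and 20, and with over 2-fold change required 0, 0, 3, 0 and 0. Leaving out 1 library at a time gave 0 to 14, 2 to 8, 8 to 27, 1 to 6 and 2 to 16. Same-numbered libraries did not deviate together (r from -0.26 to 0.11 over 18 pairs), so the numbers do not pair them; with a replicate block the counts were 5, 4, 14, 4 and 8. The interaction had 0 calls throughout. For the named members, 6035 values under alternatives stayed on their side of the threshold, 73 gained a call, 180 lost it and 0 reversed. NDUFV1 and MT-ATP8 rest on few reads; the effect of the lower depth of all libraries with DAC was not tested. The replicates are technical, so spread between cultures is unknown.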
